A study of Mus musculus with 20 samples.

Results

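The genes described here are the secreted and membrane-bound cues that steer growing axons and the receptors that read them, taken by gene symbol: class 3 to class 7 semaphorins, plexins, neuropilins, ephrins, Eph receptors, Slits, Robo receptors, netrins, Dcc and the Unc5 receptors. A transcript cluster, the unit of the array that stands for 1 gene, was a member where its annotation held 1 such symbol and no other. This gave 68 genes on 73 transcript clusters, out of 19938 genes with a transcript cluster of their own and 28853 transcript clusters in all. Of the members, 35 genes encode ligands and 33 encode receptors. There were 20 semaphorins, 9 plexins, 2 neuropilins, 8 ephrins, 13 Eph receptors, 3 Slits, 4 Robo receptors, 4 netrins, 4 Unc5 receptors and Dcc. Epha10, Ephb1, Sema4d, Sema6b and Unc5d had 2 transcript clusters each, and both of Sema6b held identical values on every array.

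Guidance cues repel or attract the growth cone at the tip of an axon through receptors that act on the actin skeleton by small GTPases. Semaphorins signal through plexins, with neuropilins as the ligand-binding partner for most secreted semaphorins, while ephrins signal to Eph receptors on neighbouring cells, Slits to Robo receptors, and netrins to Dcc and Unc5 receptors. In the adult brain many of these genes stay expressed in neurons, where they take part in dendritic spine shape and synaptic plasticity, and in the hippocampus ephrins and Eph receptors are known for their role in contacts between neurons and astrocytes.

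Amygdala and hippocampus were punched from male C57BL/6 mice 2 mo old, either wild type (WT) or lacking both calcium-stimulated adenylyl cyclases, AC1 and AC8 (DKO). Untrained mice gave the baseline, taken 5 min ahead of conditioned fear (CF) training. The others were trained for 5 min, with a single shock of 0.7 mA lasting 2 sec, and killed directly afterwards (0 hr), after 1 hr or after 48 hr, or were tested for 5 min at 1 wk and killed then. Each of the 20 Affymetrix Mouse Gene ST 1.0 arrays pooled RNA of 5 to 10 mice, with 1 array per region, genotype and time, so that every group of region and genotype holds 5 arrays. The values are log2 levels after RMA, a background correction, normalization and summary of the probes. The DKO mice came from matings for an inducible AC8 line raised on doxycycline until weaning, carried a tetop-AC8 or a CaMKII-tTA transgene alone or neither, and were compared with C57Bl/6 mice that were not littermates. Pooling leaves the spread between mice unmeasured, and whether both regions of a condition came from the same mice was not stated.

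Array medians lay between 6.64 and 6.83 and no 2 arrays were identical. Adcy8 (AC8) had values of 6.94 to 7.26 on the WT amygdala arrays and 5.46 to 5.89 on the DKO ones, and of 7.14 to 7.66 and 5.22 to 5.79 in the hippocampus, without overlap. Adcy1 (AC1) was likewise lower on every DKO array, at 7.51 to 7.77 against 7.97 to 8.38 in the amygdala and 7.67 to 7.80 against 9.04 to 9.53 in the hippocampus. Of 14 measured hippocampal marker genes 12 were higher in the hippocampus (median difference 1.45), and of 12 amygdala markers 10 were lower there (median -0.94). Markers of neighbouring tissue also separated the punches: 11 of 13 striatal genes were lower and 10 of 12 thalamic genes higher in the hippocampus, and in bulk tissue fewer cells of a type and less RNA per cell cannot be told apart. Arrays that stood apart in these lists included 3 taken at 48 hr. On the WT amygdala array of that time the mean of the hippocampal markers was 7.38, against 6.90 to 7.15 on the other 9 amygdala arrays, and on the WT hippocampus array the mean of the amygdala markers was 7.60, against 7.15 to 7.31 on the other 9. On the DKO hippocampus array the mean of the thalamic markers was 8.07, against 7.17 to 7.80 on the other 9.

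To show the DNA of ligands and receptors that differed in opposite directions between the regions, the RefSeq promoters (250 bases before to 50 after the annotated start, GRCm38.p6) are given for a secreted repellent and its receptor, Sema3a (chr5:13396534-13396833, plus strand) and Nrp1 (chr8:128358823-128359122, plus strand), and for a ligand and a receptor of the ephrin system, Efnb2 (chr8:8661193-8661492, minus strand) and Epha4 (chr1:77515039-77515338, minus strand). Each is written 5′ to 3′ on the strand of its gene, with capitals at every match, on either strand, to GGGCGG (GC box), TGACG (the core of the cAMP response element, CRE, contained in the full element TGACGTCA), CCAAT or TATAAA.
Sema3a: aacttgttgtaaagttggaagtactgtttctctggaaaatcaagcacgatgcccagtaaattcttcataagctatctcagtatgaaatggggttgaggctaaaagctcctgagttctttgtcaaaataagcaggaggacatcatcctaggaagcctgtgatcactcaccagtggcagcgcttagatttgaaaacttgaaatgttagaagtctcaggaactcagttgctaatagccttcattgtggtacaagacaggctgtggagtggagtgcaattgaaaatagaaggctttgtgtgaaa
Nrp1: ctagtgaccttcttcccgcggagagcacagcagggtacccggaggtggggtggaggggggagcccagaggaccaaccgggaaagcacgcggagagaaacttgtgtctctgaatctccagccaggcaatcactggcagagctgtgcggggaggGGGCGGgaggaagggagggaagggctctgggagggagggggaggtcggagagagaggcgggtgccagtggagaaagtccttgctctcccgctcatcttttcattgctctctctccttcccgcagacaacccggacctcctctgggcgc
Efnb2: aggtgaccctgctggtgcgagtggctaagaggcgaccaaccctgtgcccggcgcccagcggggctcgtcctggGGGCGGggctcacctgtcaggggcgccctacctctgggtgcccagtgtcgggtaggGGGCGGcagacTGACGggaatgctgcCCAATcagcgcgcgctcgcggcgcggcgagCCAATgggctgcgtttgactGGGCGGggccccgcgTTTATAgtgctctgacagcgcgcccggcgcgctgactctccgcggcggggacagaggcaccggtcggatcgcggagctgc
Epha4: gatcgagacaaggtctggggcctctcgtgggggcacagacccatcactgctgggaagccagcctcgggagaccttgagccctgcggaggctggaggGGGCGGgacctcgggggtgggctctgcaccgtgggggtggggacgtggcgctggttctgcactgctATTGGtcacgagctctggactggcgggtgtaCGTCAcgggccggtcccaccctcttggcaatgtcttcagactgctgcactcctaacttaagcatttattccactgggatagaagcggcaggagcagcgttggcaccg

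The Sema3a window held none of these letters and had a GC content of 41.3%, while Nrp1 and Epha4 had 64.0% and Efnb2 had 72.3%. Nrp1 had 1 GC box, Epha4 had 1 GC box, 1 CRE core and 1 CCAAT, and Efnb2 had 3 GC boxes, 1 CRE core, 2 CCAAT and 1 TATA box. Promoter windows were found for 58 of the 68 genes, 74 windows in all, with a median GC content of 64.2% against 52.7% over all 32851 windows. A GC box lay in 71.62% of the members' windows and in 35.66% of all windows, and a TATA box in 2.7% against 13.62%, in Efnb2 and Slit2. The full CRE, the site bound by the cAMP-responsive factor CREB, was found for Epha2 alone (1.79% of all windows), and its core for 10 genes (13.51% of the members' windows, 20.81% of all): Efnb1, Efnb2, Epha2, Epha4, Ephb1, Ephb3, Sema3d, Sema5a, Sema7a and Unc5c. A match is a description of the letters and not evidence of binding.

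Guidance genes differed between the hippocampus and the amygdala, while none passed the test between genotypes or between times. In the limma fit over all transcript clusters, 27 of the 68 genes passed an adjusted p of 0.05, 16 higher and 11 lower in the hippocampus. These were 28 transcript clusters, or 38.4% of the members, where 17.7% of all transcript clusters passed (8.95% higher and 8.78% lower). At a difference of at least 1.5-fold there were 8 genes higher and 6 lower, 20.5% of the members' transcript clusters beside 2.27% of all (1.12% higher and 1.15% lower), and at 2-fold 9 genes, 12.3% beside 0.589%. The 10 hippocampus and 10 amygdala arrays did not overlap for 16 genes, 23.3% of the members' transcript clusters beside 3.8% of all (1.99% higher and 1.81% lower). The median difference was -0.03 for the members and -0.02 for all transcript clusters, and the median size of a difference, whatever its sign, was 0.12 for the members and 0.07 for all.

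**Figure D1:**
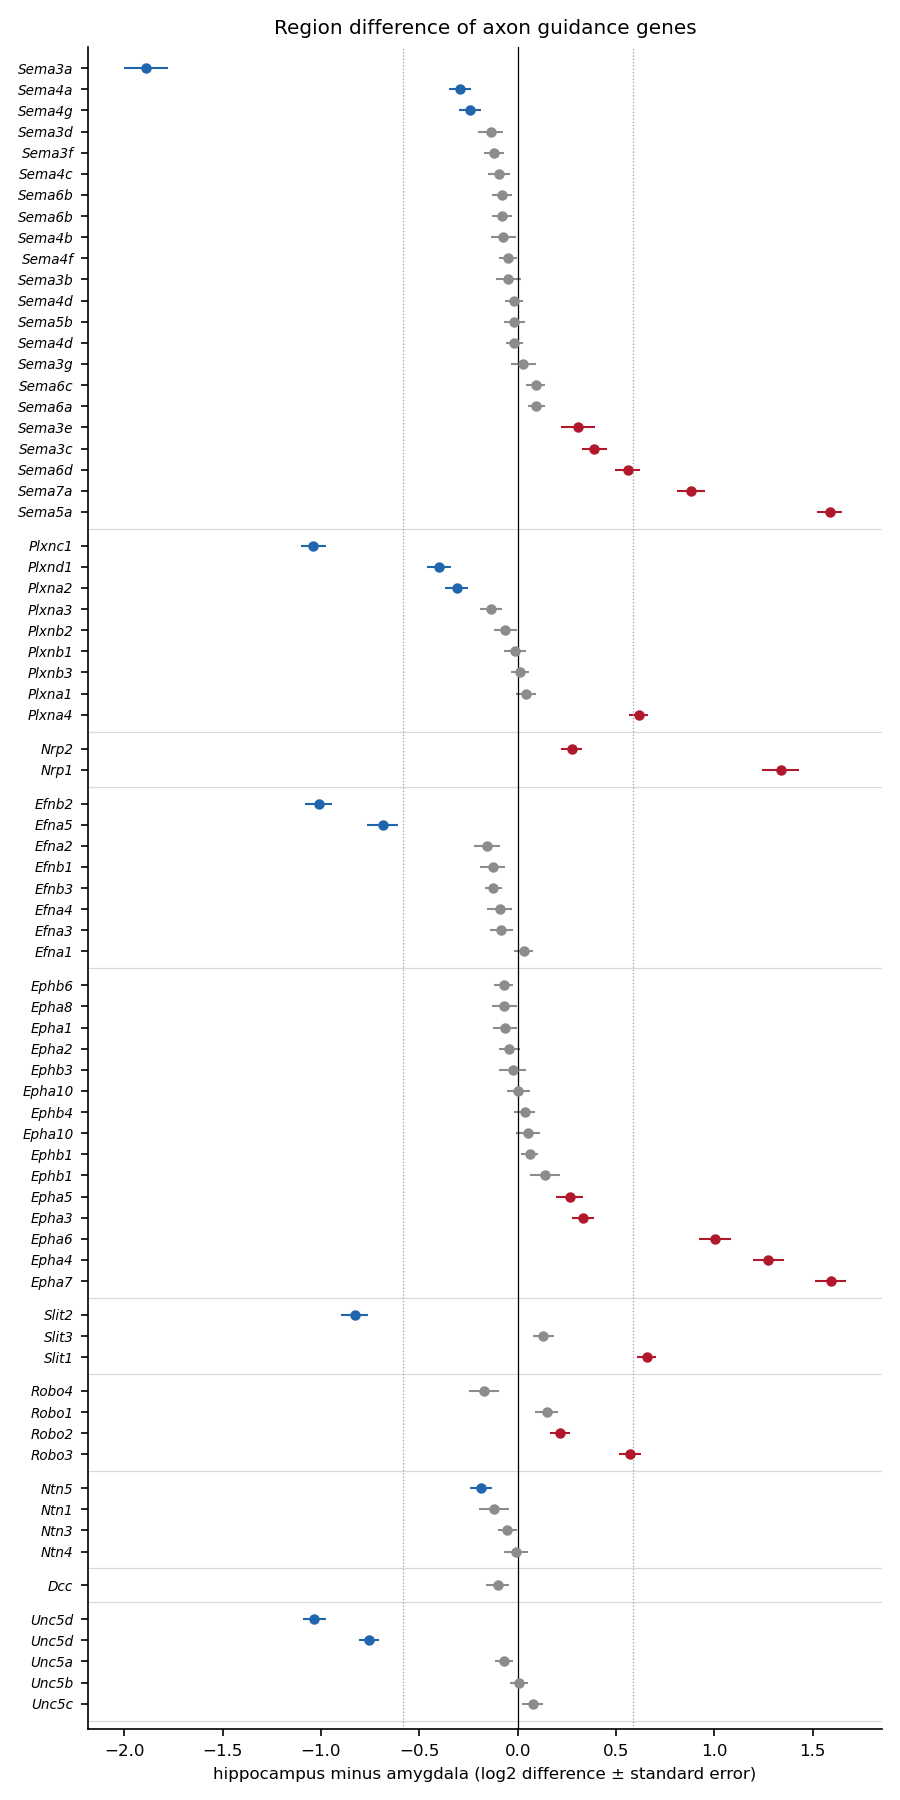
Log2 difference between hippocampus and amygdala (x axis, positive where the hippocampus was higher, with the standard error of the limma fit) of all 73 transcript clusters, grouped from top to bottom into semaphorins, plexins, neuropilins, ephrins, Eph receptors, Slits, Robo receptors, netrins, Dcc and Unc5 receptors. Red and blue points passed an adjusted p of 0.05, grey points did not, and dotted lines mark 1.5-fold: Sema3a is the lowest at -1.89 and Epha7 the highest at 1.59.

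Among ephrins and Eph receptors, the receptors that passed were all higher in the hippocampus (5 of 13 genes) and the ligands that passed were both lower (2 of 8 genes). Epha7, Epha4, Epha6, Epha3 and Epha5 are receptors of the A class, which mostly bind the membrane-anchored ephrin-A ligands. Epha7 ranged from 8.67 to 9.44 in the amygdala (median 9.17) and from 10.48 to 10.90 in the hippocampus (median 10.73), a difference of 1.59 ± 0.08 (SE) or 3.01-fold (adjusted p = 1.88e-13). Epha4, which also binds ephrin-B ligands and is known for its part in spine retraction, had values of 8.23 to 9.04 (median 8.76) in the amygdala and 9.88 to 10.13 (median 9.96) in the hippocampus, 2.42-fold apart (log2 1.27 ± 0.08, adjusted p = 9.26e-12). For Epha6 the amygdala arrays lay at 8.26 to 9.10 (median 8.79) and the hippocampus arrays at 9.42 to 10.16 (median 9.78), a 2.00-fold difference (adjusted p = 1.35e-09). None of these 3 receptors overlapped between the regions, and each was higher in the hippocampus in all 10 pairs of the same genotype and time. Epha3 and Epha5 differed less, by 0.33 ± 0.06 and 0.26 ± 0.07, and their ranges overlapped. The B class receptors Ephb1, Ephb3, Ephb4 and Ephb6 and the A class receptors Epha1, Epha2, Epha8 and Epha10 did not pass, with differences between -0.07 and 0.14.

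Efnb2, a transmembrane ligand of B class receptors and of Epha4, ranged from 8.10 to 8.55 in the amygdala (median 8.36) and from 6.84 to 7.59 in the hippocampus (median 7.43), 2.02-fold lower in the hippocampus (log2 -1.01 ± 0.07, adjusted p = 4.51e-11). Efna5, an anchored ligand of A class receptors, had 7.44 to 8.15 (median 7.66) in the amygdala and 6.84 to 7.31 (median 7.06) in the hippocampus, 1.61-fold lower (log2 -0.69 ± 0.08, adjusted p = 3.16e-07). Its regions came close: the lowest amygdala array, WT at 48 hr with 7.44, stood near the highest hippocampus array, DKO at baseline with 7.31. The other 6 ephrins did not pass, at -0.16 to 0.03.

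Semaphorins differed in both directions. Sema3a, a secreted repellent that binds neuropilin-1 and signals through A class plexins, was the member with the largest difference toward the amygdala. Its amygdala values ran from 8.41 to 9.09 (median 8.72) and its hippocampus values from 6.33 to 7.60 (median 6.85), 3.71-fold lower in the hippocampus (log2 -1.89 ± 0.11, adjusted p = 3.65e-12). The regions did not overlap, and the difference within pairs of genotype and time ran from -2.39 to -1.07, the smallest being that of WT at 48 hr. Without both WT 48 hr arrays it was -2.002.

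The receptors of Sema3a were divided. Nrp1, the neuropilin that binds Sema3a, had amygdala values of 6.87 to 7.76 (median 7.29) and hippocampus values of 8.44 to 9.02 (median 8.63), 2.53-fold higher in the hippocampus (log2 1.34 ± 0.09, adjusted p = 6.86e-11). Plxna4, a plexin that pairs with it, ranged from 8.82 to 9.30 (median 9.08) and from 9.60 to 9.84 (median 9.68), 1.53-fold higher (adjusted p = 5.54e-10). Neither overlapped between the regions. Nrp2, which prefers other class 3 semaphorins, was higher by 0.28 ± 0.05, while Plxna2 was lower by 0.31 (log2 difference -0.31 ± 0.06), both with overlapping ranges. Plxna1 (0.04) and Plxna3 (-0.14) did not pass, and the co-receptor L1cam was lower (-0.74).

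Sema5a, a transmembrane semaphorin with thrombospondin repeats, had the second largest difference toward the hippocampus, from 7.19 to 7.81 (median 7.66) in the amygdala to 8.95 to 9.38 (median 9.23) in the hippocampus, a log2 difference of 1.59 ± 0.06 (adjusted p = 1.03e-14). Sema7a, a membrane-anchored semaphorin, and Plxnc1, the plexin that binds it, pointed opposite ways. Sema7a ran from 7.20 to 7.97 (median 7.68) in the amygdala and from 8.43 to 8.71 (median 8.56) in the hippocampus, 1.84-fold higher (adjusted p = 9.56e-10). Plxnc1 ran from 7.98 to 8.42 (median 8.23) in the amygdala and from 6.90 to 7.36 (median 7.22) in the hippocampus, 2.06-fold lower (log2 -1.04 ± 0.06, adjusted p = 7.42e-12). All 10 pairs showed each of these directions and no array crossed over. A like arrangement of smaller size was measured for Sema3e, higher in the hippocampus by 0.31 ± 0.09, and its receptor Plxnd1, with a log2 difference of -0.40 ± 0.06, whose ranges overlapped between regions. Sema3e did not pass on the WT arrays alone or on the DKO arrays alone.

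Sema6d (0.56 ± 0.06) and Sema3c (0.39 ± 0.06) were the other semaphorins higher in the hippocampus, and Sema4a (-0.29 ± 0.06) and Sema4g (-0.24 ± 0.06) the others lower. Of these 4, Sema4a alone did not overlap, at 7.17 to 7.55 in the amygdala and 6.89 to 7.16 in the hippocampus. In all, 5 semaphorins were higher, 3 lower and 12 did not pass, and 1 plexin was higher, 3 lower and 5 did not pass.

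The Slits divided. Slit1, which like Slit2 is a secreted repellent read by Robo receptors, ranged from 7.24 to 7.54 (median 7.36) in the amygdala and from 7.78 to 8.16 (median 8.08) in the hippocampus, 1.58-fold higher (log2 0.66 ± 0.05, adjusted p = 2.63e-10). Slit2 ranged from 8.26 to 8.77 (median 8.65) and from 7.48 to 8.09 (median 7.76), 1.78-fold lower in the hippocampus (log2 -0.83 ± 0.07, adjusted p = 1.50e-09). Both were free of overlap between regions, and Slit3 did not pass (0.13 ± 0.05, adjusted p = 0.105). Of the receptors, Robo3, which in mammals has lost the binding of Slits, differed by 0.57 ± 0.06 without overlap, from 6.04 to 6.58 in the amygdala to 6.76 to 6.93 in the hippocampus. Robo2 was higher by 0.22 ± 0.05 with overlap, and Robo1 (0.15) and the vascular Robo4 (-0.17) did not pass.

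In the netrin system, Unc5d was the gene that stood out. Its first transcript cluster ran from 9.54 to 9.86 (median 9.63) in the amygdala and from 8.41 to 8.85 (median 8.60) in the hippocampus, 2.05-fold lower in the hippocampus (log2 -1.03 ± 0.06, adjusted p = 1.74e-12), and its second from 7.56 to 7.92 and from 6.804 to 7.13, 1.69-fold lower. Neither overlapped. Unc5d binds the membrane proteins of the Flrt family as well, of which Flrt3 (-0.20, adjusted p = 0.00713) and Flrt1 (-0.20, adjusted p = 0.0112) were also lower in the hippocampus, and Flrt2 did not pass (-0.13, adjusted p = 0.0911). Of the netrins, Ntn5 was lower by a log2 difference of -0.19 ± 0.06 with overlap. Ntn1, Ntn3, Ntn4, the netrin-1 receptor Dcc, Unc5a, Unc5b and Unc5c did not pass, with differences between -0.12 and 0.08.

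**Figure D2:**
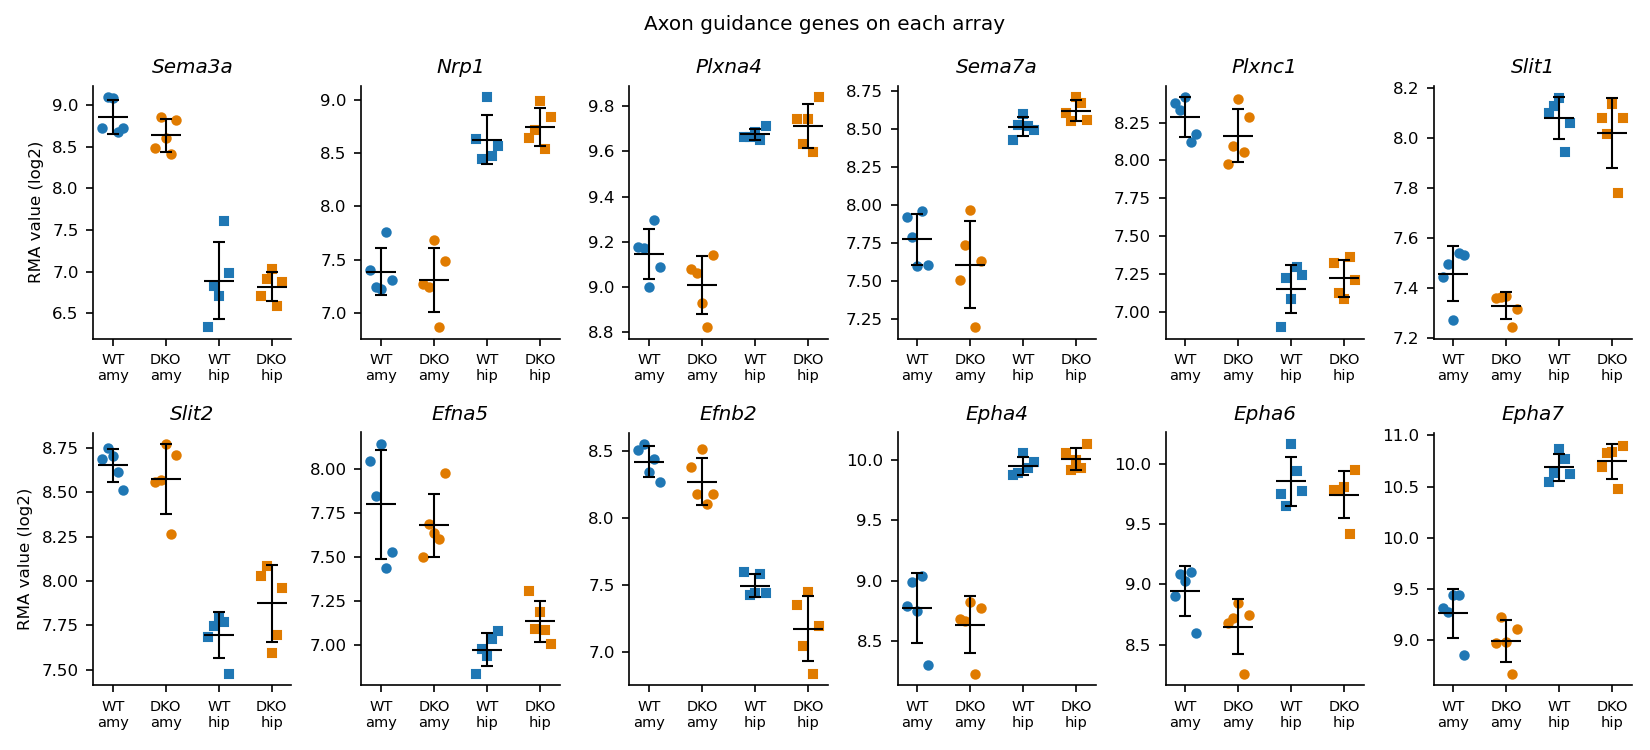
RMA value (log2, y axis, a separate scale per gene) of 12 guidance genes on each array, by genotype (WT blue, DKO orange) and region (amygdala circles, hippocampus squares), the 5 points of a group running from baseline to 1 wk. Bars are the mean and SD of the 5 arrays; in every panel the 10 arrays of one region lie apart from the 10 of the other.

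Most of these differences passed in either genotype alone. Fitted on WT arrays alone, 22 of the 28 transcript clusters passed, and on DKO arrays alone 25. Sema3e and Ntn5 passed in neither genotype alone. The mean difference of Sema3a was -1.97 in WT and -1.81 in DKO, that of Nrp1 1.24 and 1.43, that of Epha7 1.43 and 1.76 and that of Efnb2 -0.93 and -1.10. All 28 remained with genotype and time as a block, with a further quantile normalization, with arrays centred on their medians, without the baseline arrays and after leaving out any 1 array. Ntn5 was lost without both WT 48 hr arrays. The arrays of a region and genotype serve here as replicates although each was taken at another time, so that the spread includes any change with time.

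The region difference stood beside the marker lists of tissue around the punches. The mean of the striatal markers was 8.20 to 8.80 on amygdala arrays and 7.38 to 7.59 on hippocampus arrays, and that of thalamic markers 6.88 to 7.09 and 7.17 to 8.07. Markers of oligodendrocytes were higher in the hippocampus for 10 of 10 genes, with a median of 0.37. The part of tissue or cell makeup in the members' differences was not tested.

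**Figure D3:**
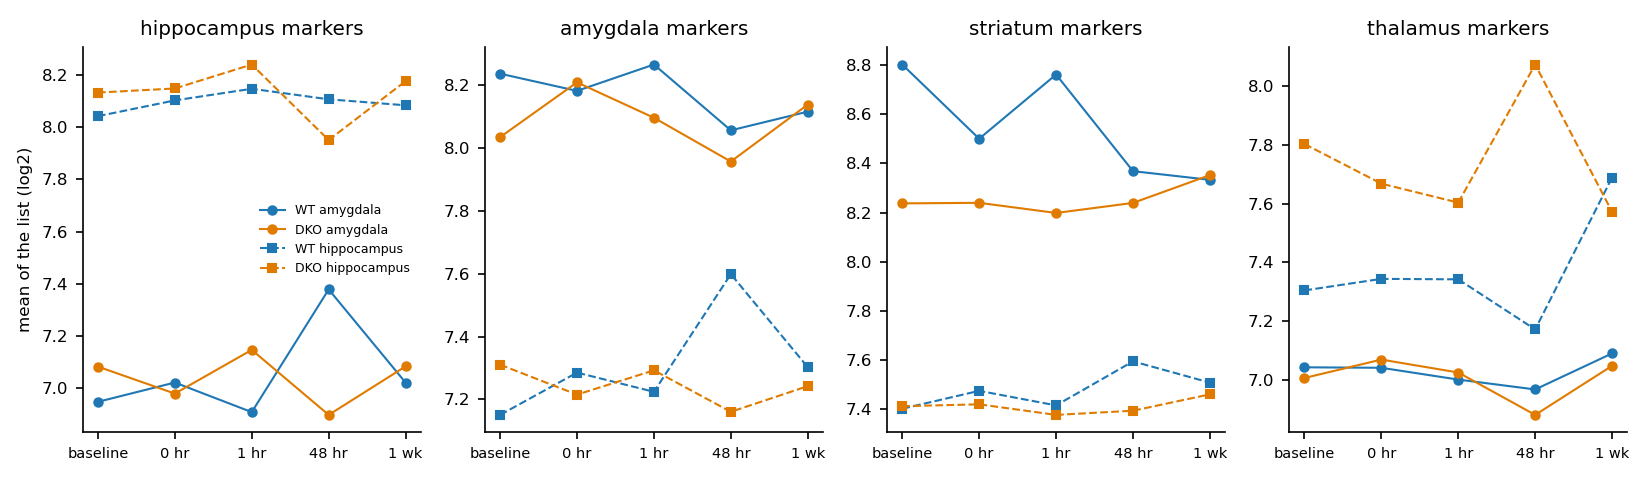
Mean log2 level of the marker genes of hippocampus, amygdala, striatum and thalamus (y axes) on each array, by time (x axis), genotype (WT blue, DKO orange) and region (amygdala circles, hippocampus squares). The WT 48 hr amygdala array has the highest hippocampal level of its region (7.38), the WT 48 hr hippocampus array the highest amygdala level of its region (7.60), and the DKO 48 hr hippocampus array the highest thalamic level (8.07).

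The genes that carry these signals into the cell differed between the regions in both directions. Of 64 co-receptors and intracellular partners listed by name, 59 genes were measured, of which 12 were higher in the hippocampus and 12 lower, with a median difference of 0.01 over their transcript clusters. Of all transcript clusters 8.95% were higher and 8.78% lower. At 1.5-fold 2 partners were higher and 2 lower, where 1.12% and 1.15% of all transcript clusters were. At 1.5-fold, Vav3, a signalling protein that acts below Eph receptors, was higher by 1.47 ± 0.06 (amygdala mean 5.87, hippocampus mean 7.34) and Mical2, an enzyme that oxidizes actin, by 0.65. L1cam, an adhesion molecule that joins Nrp1 in the Sema3a receptor, was lower with a difference of -0.74, and Ngef, the exchange factor ephexin that acts below Epha4, with -0.60. Smaller differences passed for Chn1, a Rac-inactivating protein that acts below Epha4 (0.37), for Kalrn, an exchange factor of dendritic spines (0.54), and for Pak3, a Rac-activated kinase (-0.38).

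No member passed in the comparison of DKO with WT. In the amygdala, limma called 0 of 73 transcript clusters at an adjusted p of 0.1, where 28 of all transcript clusters (0.097%) passed. At an unadjusted p under 0.05 there were 7 (9.59% of the members, 6.82% of all), and 3 by the methods' t-test, which also called 0 after adjustment. In the hippocampus limma called 0 where 34 of all (0.118%) passed, with 12 at an unadjusted p under 0.05 (16.4%, 11.4% of all) and 15 by the methods' t-test, again with 0 after adjustment. The 12 include both transcript clusters of Sema6b, which hold identical values. The median difference of the members was -0.05 in the amygdala and -0.03 in the hippocampus, beside -0.01 and -0.02 over all transcript clusters.

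The largest differences between genotypes, named by size although none passed, were those of Epha6, Epha7 and Robo4 in the amygdala. In order from baseline over 0 hr, 1 hr and 48 hr to 1 wk, Epha6 had WT values of 8.91, 9.08, 9.03, 9.10 and 8.60 and DKO values of 8.68, 8.72, 8.84, 8.26 and 8.74, a difference of -0.29 ± 0.12 (adjusted p = 0.646). Its genotypes overlapped through the WT array of 1 wk. Epha7 ran 9.31, 9.27, 9.44, 9.43 and 8.85 in WT and 8.97, 9.23, 8.97, 8.67 and 9.11 in DKO, overlapping likewise, with a difference of -0.27 ± 0.12 (adjusted p = 0.646). For both genes the genotypes lay furthest apart at 48 hr. The mean of the hippocampal markers was 7.38 on the WT amygdala array of that time and 6.90 on the DKO one. That DKO array was the lowest of its region for 36.8% of all transcript clusters. The part of these arrays' makeup in the differences of Epha6 and Epha7 was not tested. Robo4, a receptor of blood vessels, stood at 6.15, 6.68, 6.49, 6.61 and 6.70 in WT and at 6.99, 6.78, 6.6, 6.99 and 6.56 in DKO (0.26 ± 0.11, adjusted p = 0.646). Striatal markers had a median difference of -0.31 between DKO and WT amygdala, with list means of 8.20 to 8.35 against 8.33 to 8.80 in WT and 0 of 13 genes called, and their part in the members' differences was not tested. The genotypes did not overlap in the amygdala for 1 transcript cluster of the members, 1.37% beside 0.863% of all: the second of Unc5d, at 7.77 to 7.92 in WT and 7.56 to 7.73 in DKO (-0.17 ± 0.07, adjusted p = 0.646), chosen after its values were seen. The first transcript cluster of Unc5d overlapped, at 9.57 to 9.86 in WT and 9.54 to 9.75 in DKO, a difference of -0.10.

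In the hippocampus, Efnb2 had 7.59, 7.43, 7.44, 7.59 and 7.44 in WT and 7.35, 7.05, 7.44, 6.84 and 7.19 in DKO, from baseline to 1 wk, a difference of -0.32 ± 0.10 (adjusted p = 0.343). The highest DKO array, at 1 hr, lay among the WT arrays. The thalamic markers moved the other way on the same arrays, at 7.17 to 7.69 in WT and 7.57 to 8.07 in DKO, with their highest value on the DKO 48 hr array where Efnb2 was lowest. Their part in it was not tested. Sema5a ran 9.05, 9.08, 9.27, 8.95 and 8.95 in WT and 9.30, 9.37, 9.37, 9.19 and 9.38 in DKO (0.26 ± 0.07, adjusted p = 0.301), with the WT array of 1 hr inside the DKO range. Without that array Sema5a was the 1 member that passed. Plxnb3, a plexin of oligodendrocytes, had 6.74, 6.74, 6.71, 6.64 and 6.61 in WT and 6.51, 6.47, 6.53, 6.38 and 6.43 in DKO, a difference of -0.22 ± 0.06 without overlap (adjusted p = 0.279). Along with Ntn3 and 1 of the 2 transcript clusters of Ephb1 it was 1 of 3 whose genotypes did not overlap there, 4.11% beside 1.73% of all. The other transcript cluster of Ephb1 overlapped, at 6.74 to 7.27 in WT and 6.92 to 7.45 in DKO, a difference of 0.03.

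**Figure D4:**
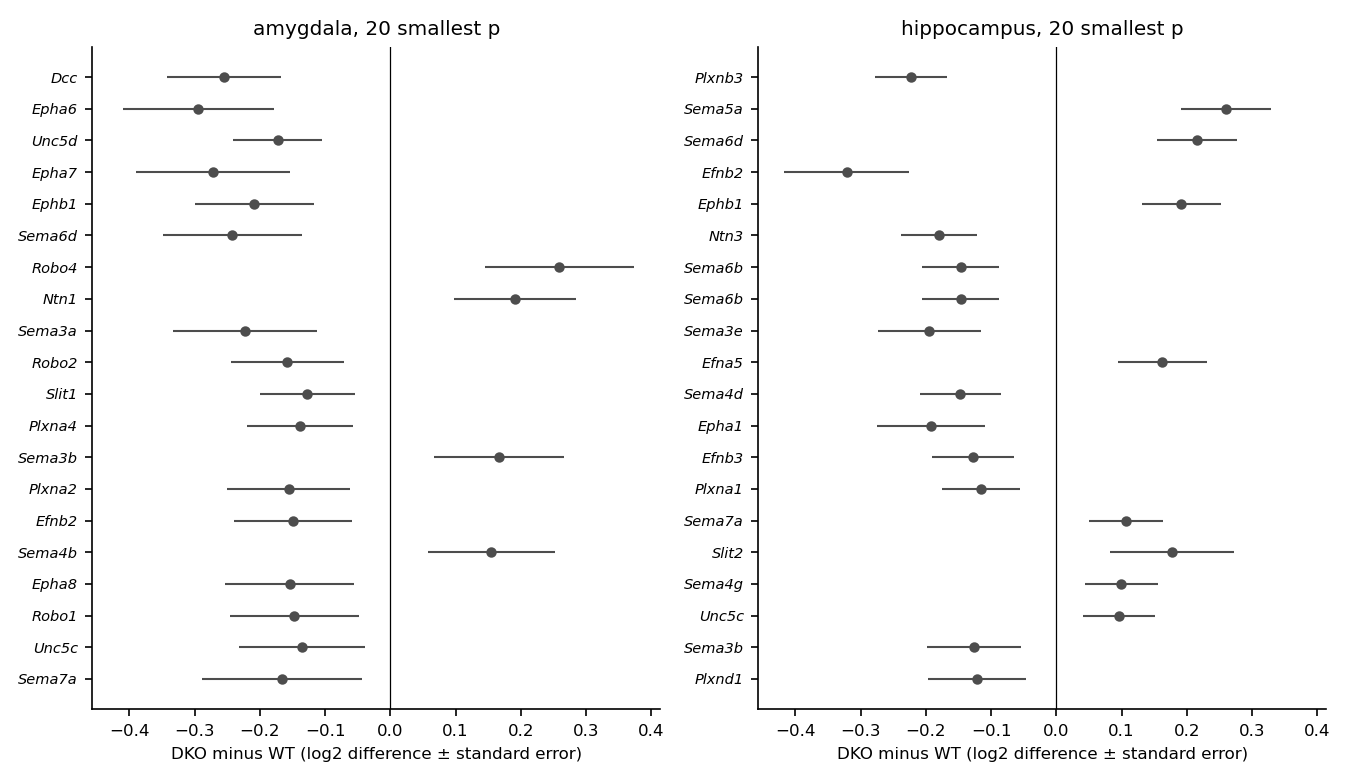
DKO minus WT log2 difference (x axis, with the standard error of the limma fit) for the 20 transcript clusters of guidance genes with the smallest p in the amygdala (left) and in the hippocampus (right). No point passed after adjustment, and the largest were Epha6 at -0.29 and Efnb2 at -0.32.

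Whether the genotype difference itself differed between the regions was tested by an interaction, in which limma called 0 members beside 3 of all transcript clusters (0.0104%), with 10 at an unadjusted p under 0.05 (13.7%, 17.4% of all). The largest was Sema6d, a transmembrane semaphorin. It had 9.04, 8.91, 9.25, 8.83 and 8.83 in WT amygdala and 8.54, 8.77, 8.88, 8.49 and 8.97 in DKO amygdala, against 9.18, 9.29, 9.31, 9.33 and 9.39 in WT hippocampus and 9.47, 9.61, 9.55, 9.38 and 9.56 in DKO hippocampus. The DKO minus WT difference was -0.24 in the amygdala and 0.22 in the hippocampus, 0.46 ± 0.13 apart (adjusted p = 0.241). Among the pathway partners, Vav3 was the 1 gene called, higher in DKO hippocampus by 0.61 ± 0.09 (adjusted p = 0.00752), with -0.31 in the amygdala (adjusted p = 0.432) and an interaction of 0.93 (adjusted p = 0.00073). These are the hippocampus arrays on which the thalamic markers were at 7.57 to 8.07, against 7.17 to 7.69 in WT, and their part in the level of Vav3 was not tested.

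No member passed at any time after training either. With the 4 groups as replicates, limma called 0 members at each of the 4 times, where 1 of all transcript clusters (0.00347%) passed directly after training, 7 (0.0243%) after 1 hr, 0 (0.0%) after 48 hr and 1 (0.00347%) after 1 wk. At an unadjusted p under 0.05 there were 1, 3, 4 and 0 members in that order, beside 2.58%, 6.16%, 3.59% and 3.12% of all transcript clusters, and the methods' t-test was not applied to times. Within the amygdala and within the hippocampus 0 members passed at each time, beside 0 or 1 of all transcript clusters (0.0% to 0.00347%), and no other tool was run on them. At an unadjusted p under 0.05 there were 2, 0, 1 and 0 members in the amygdala (1.28%, 1.57%, 4.59% and 1.43% of all) and 0, 3, 4 and 0 in the hippocampus (2.29%, 5.87%, 5.59% and 4.35% of all). Each of these fits rests on 2 arrays per time, 1 of each genotype.

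The largest changes within a region, named by size although none passed, included Sema3a in the amygdala and Nrp1 in the hippocampus, at different times. Sema3a in the amygdala had 8.72 at baseline and 9.09 at 0 hr in WT, and 8.49 and 8.85 in DKO, a change of 0.37 ± 0.14 (adjusted p = 1.00). Sema4a, a transmembrane semaphorin also found on immune cells, ran from 7.20 to 7.55 in WT and from 7.24 to 7.50 in DKO over the same interval (0.31 ± 0.14), and Sema3d, a secreted semaphorin, from 5.65 at baseline to 6.11 at 1 hr in WT and from 5.71 to 5.89 in DKO (0.32 ± 0.17). In the hippocampus Nrp1 ran from 8.63 at baseline to 9.02 at 1 hr in WT and from 8.64 to 8.99 in DKO, a change of 0.37 ± 0.11 in the same direction in both genotypes (adjusted p = 0.702). Unc5d, in its first transcript cluster, ran from 8.41 to 8.85 at 48 hr in WT and from 8.51 to 8.69 in DKO (0.31 ± 0.13, adjusted p = 0.881). Its second transcript cluster ran from 6.97 to 7.13 in WT and, the other way, from 7.13 to 6.82 in DKO. The WT 48 hr hippocampus array is the one with the highest amygdala marker level. The part of other tissue in the level of Unc5d there was not tested. For Sema3a at 48 hr the hippocampal change of 0.57 came from the WT array, at 7.60 against 6.33 at baseline, while the DKO values were 6.58 and 6.71.

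**Figure D5:**
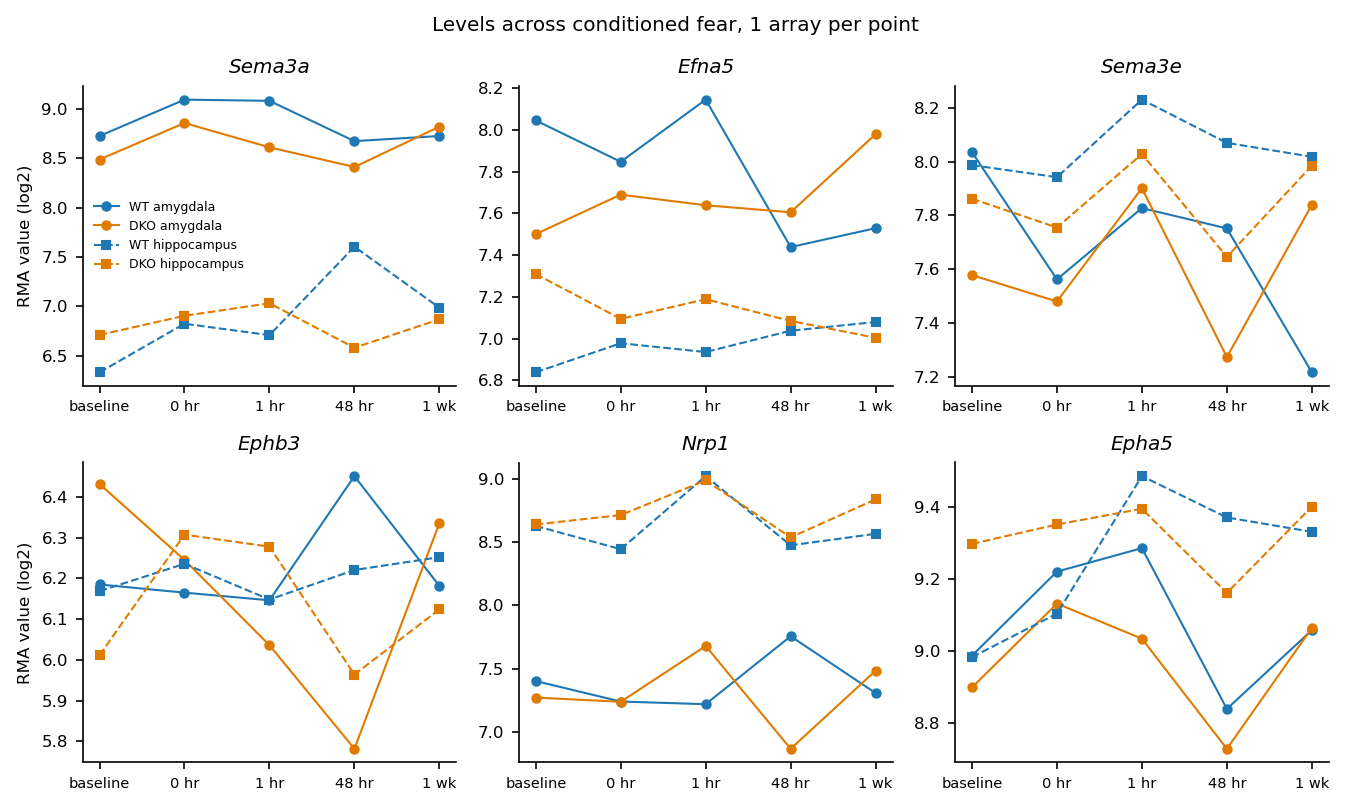
RMA value (log2, y axis) of 6 guidance genes from baseline to 1 wk (x axis, not to scale), with 1 array per point for WT (blue) and DKO (orange) amygdala (circles, solid lines) and hippocampus (squares, broken lines). Sema3a reaches 7.60 on the WT hippocampus array of 48 hr, below all amygdala arrays, and Nrp1 lies higher at 1 hr in both hippocampus groups.

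Set against the baseline array of the same region and genotype, 5 changes in 4 genes reached 1.5-fold over the 16 arrays after baseline, each resting on 1 array against 1 and without a test. With a further quantile normalization 1 of the 3 in the amygdala reached that size, and with median centring 1 of the 2 in the hippocampus. Sema3a in WT hippocampus stood at 6.33, 6.83, 6.71, 7.60 and 6.99 from baseline to 1 wk, so that the 48 hr array was 2.41-fold and the 1 wk array 1.57-fold above baseline (1.08% and 0.516% of all transcript clusters lay that far above baseline on those arrays). Its baseline value was the lowest of the 10 hippocampus arrays. The 48 hr array is the one with the highest amygdala marker level, and there the part of other tissue in the level of Sema3a was not tested. On that array 3 of the 7 transcript clusters lower in the hippocampus by 1.5-fold, Sema3a and both of Unc5d, had their highest hippocampal value. So had 5 of the 73 member transcript clusters and 9.8% of all. The 7 were picked by the region contrast, which used these same arrays.

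In WT amygdala Efna5 had 8.05, 7.85, 8.15, 7.44 and 7.53 from baseline to 1 wk, 1.52-fold below baseline at 48 hr (1.84% of all transcript clusters lay that far below). The mean of the striatal markers ran 8.80, 8.50, 8.76, 8.37 and 8.33 on those 5 arrays, and their part in the level of Efna5 was not tested. Both were lower at 48 hr and 1 wk than at the earlier times, but their highest and lowest values fell on different arrays. In DKO amygdala Efna5 had 7.50, 7.69, 7.64, 7.61 and 7.98. Sema3e in WT amygdala had 8.04, 7.56, 7.83, 7.75 and 7.22, 1.76-fold below baseline at 1 wk (1.82% of all lay that far below), and in DKO 7.58, 7.48, 7.90, 7.27 and 7.84. Ephb3, an Eph receptor for ephrin-B ligands, had 6.43, 6.25, 6.04, 5.78 and 6.34 in DKO amygdala, 1.57-fold below baseline at 48 hr (1.07% of all lay that far below), and 6.19, 6.17, 6.15, 6.45 and 6.18 in WT. Its level was low, below the lowest array median (6.64) on every array. The change fell on the DKO 48 hr amygdala array, the lowest of its region for 36.8% of all transcript clusters.

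The DKO 48 hr amygdala array was the lowest of its region over the array as a whole, for 36.8% of all transcript clusters and, at about the same share, for 27 of the 73 members. It was the lowest for all 8 genes that were at least 1.5-fold higher in the hippocampus. On it Nrp1 stood at 6.87 (7.22 to 7.76 on the other amygdala arrays), Sema5a at 7.19 and Sema7a at 7.20. The marker lists of hippocampus (6.90), amygdala (7.96), thalamus (6.88), oligodendrocytes (7.95), astrocytes (8.19), microglia (7.36) and endothelium (7.22) and the pathway partners (7.99) also had their lowest amygdala mean there, and those of striatum, choroid plexus and meninges did not. The DKO 48 hr hippocampus array had the lowest hippocampal value for 26 of the 73 members and for 26.3% of all transcript clusters. The WT 48 hr amygdala array had the highest amygdala value for 5 of those 8 genes, among them Epha4 at 9.04, Epha6 at 9.10 and Nrp1 at 7.76. It had the highest for 11 of the 73 members and 10.1% of all transcript clusters. Those 8 genes were picked by the region contrast, which used these same arrays. The spread within groups was otherwise that of the array as a whole, with a median SD of 0.13 for the members and 0.13 for all transcript clusters, and was widest for Sema3a (0.29), Nrp1 (0.24) and Sema3e (0.22).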

How the data were processed

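Total RNA from the punches was labelled and hybridized to Mouse Gene ST 1.0 arrays. Per the labels, the authors produced the deposited log2 values with Affymetrix Expression Console (RMA). Its version is not given in the sources used here, and the number of arrays limits the precision. Symbols came from the platform annotation: 21789 transcript clusters have 1 symbol, 1621 several and 5443 none, and all 68 member symbols matched RefSeq (GRCm38.p6). The members and lists were chosen with earlier results of these data known. All 28853 transcript clusters were fitted with limma 3.58.1 in R 4.3.3 (lmFit, eBayes) with Benjamini-Hochberg adjustment, without a filter, at an adjusted p under 0.05 (0.1 or less for genotypes within a region, the number the study's methods set for q-values, with the 5 times as replicates as there). The region contrast used 4 groups of region and genotype on all 20 arrays, the genotype contrasts 10 arrays each, and the time contrasts group or genotype plus time. The p-values measure the spread between pooled arrays. Scripts were tested on simulated data. List levels are means over the genes of a list.

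Named genes were the 10 largest region differences in each direction among those called at 1.5-fold, any member called by genotype or time, the 3 largest differences of genotype and of time per region, members at 1.5-fold on single arrays, ligands and receptors of a named member, and partners called at 1.5-fold between regions. Genes named beside these, such as Unc5d between genotypes, Sema6d in the interaction and the smaller partner differences, were chosen after their values were seen. Alternatives were a further quantile normalization, median centring, a filter above the median level, a trended robust variance, blocks by genotype and time, each genotype alone, no baseline arrays, leaving out each array, a single fit of all 20 arrays, the methods' t-test, other thresholds and references, and, chosen after seeing the data, leaving out both WT 48 hr arrays or all 4 arrays of 48 hr. Marker lists of astrocytes, microglia, endothelium, meninges and choroid plexus were measured as well: 4 of 9, 0 of 8, 5 of 8, 6 of 10 and 0 of 11 of their genes were higher in the hippocampus, and of all these 1, a meningeal gene, was lower.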

Additional observations from a re-analysis of the deposited data

Results flagged for a closer look

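Among 84 groups of 5 arrays, 4 held a single array far from the other 4, and chance gives about 1 in 20 where groups are independent and unselected. These groups belong to genes named by rule, some for changes on single arrays, and they share arrays. That rate is therefore not strictly theirs. In DKO amygdala the 48 hr array was low for Epha4, at 8.23 with the next array at 8.67, and for Epha6, at 8.26 with the next at 8.68. In WT amygdala the 1 wk array was low for Epha7, at 8.85 with the next at 9.27, and the 48 hr array was high for Ephb3, at 6.45 with the next at 6.19.

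Among the 20 genes named by rule, for 3 the later WT arrays of a region all lay on one side of their baseline array and the later DKO arrays all on the other side of theirs, and in each case the difference was not tested. Over all 73 transcript clusters of the members the pattern was met by 7 in the amygdala, where 9.81% of all transcript clusters met it, and by 5 in the hippocampus, where 6.82% did. The 7 were those of Efna2, Epha10, Epha8, Nrp2, Plxnb3, Robo4 and Sema4c, and the 5 those of Efna5, Robo1, Robo3, Sema6c and Unc5a. For Robo4 in the amygdala the mean change was 0.47 in WT and -0.26 in DKO, 0.73 apart. For Efna5 in the hippocampus it was 0.17 in WT and -0.22 in DKO, 0.39 apart, and for Plxnb3 in the amygdala 0.26 in WT and -0.11 in DKO, 0.37 apart. Each of these sets 4 arrays against the same baseline array, so that 1 baseline array on either side carries them: the 2 baseline values were 6.15 and 6.99 for Robo4, 6.84 and 7.31 for Efna5 and 6.37 and 6.64 for Plxnb3.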

How the results depend on the processing

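No result changed direction under any alternative run, and 450 values of named genes were labelled the same. Of the counts, 446 equalled the main count or stayed within 1.5-fold of it, and 14 moved further. A count within that limit can still lose or gain single members. At 2-fold the region difference left 5 transcript clusters higher and 4 lower in the hippocampus, against 8 and 7 at 1.5-fold. Leaving out each array gave 0 to 1 members called by genotype in the hippocampus, the 1 being Sema5a without the WT 1 hr array. The 3 single-array changes in the amygdala became 1 after a further quantile normalization, 1 with the averaged baseline of both genotypes as the reference and 0 at 2-fold, and the 2 in the hippocampus became 1 after median centring and 1 at 2-fold. Of the pathway partners, 2 were higher by 1.5-fold, with 1 under the filter and 5 in DKO arrays alone, and 2 were lower, with 1 after median centring, 1 in DKO arrays alone and 1 to 2 after leaving out each array (1 without the WT 1 hr or the DKO 1 wk amygdala array). The filter dropped or lost 5 called members: Epha3, Ntn5, Plxnd1, Robo3 and Sema4g. WT arrays alone lost 6 and DKO arrays alone 3, and the causes were not tested. Blocks by genotype and time changed no call. No paired analysis by replicate number was possible because the labels number no replicates.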
